A study of Mus musculus with 4 samples.

Results

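The genes described here encode the enzymes and transporters that carry glucose through glycolysis, the steps that turn pyruvate into lactate or feed it to the mitochondrion, and the pentose phosphate pathway. They were taken as a fixed list of 35 gene symbols, chosen by pathway and not by a threshold on measured values, and all 35 were found among the 20599 symbols of the count tables. Expression was measured by RNA-Seq in IgM+ CD5+ CD23- B1a cells sorted from peritoneal washes of wild-type C57BL/6 mice (2 replicates) and in IgD high IgM low CD21+ follicular B2 cells sorted from spleens of wild-type C57BL/6 mice (2 replicates). No allele or agent differed by design between the groups, and the Dnmt3a-deficient cells of the study were not analysed here. The labels give 4 weeks of age for every mouse, whereas the study's methods give 4 weeks for the B1a donors and 8 weeks for the B2 donors. Lineage, tissue and, by the methods, age therefore went together, so that their effects cannot be told apart. The replicates are separate samples by their labels, so p-values measure the spread between 2 samples of each cell type.

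In glycolysis, glucose is taken up by transporters, trapped by hexokinase, split into 3-carbon sugars by aldolase and oxidised to pyruvate by a chain that includes Gapdh, enolase and pyruvate kinase. Pyruvate is reduced to lactate by lactate dehydrogenase or enters the mitochondrion through the pyruvate dehydrogenase complex, which the pyruvate dehydrogenase kinases switch off. The pentose phosphate pathway branches off at glucose-6-phosphate. Its oxidative branch makes NADPH and its non-oxidative branch interconverts sugars and supplies ribose for nucleotides. Lymphocytes at rest use little glucose, and activated B cells raise its uptake and glycolysis.

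The 4 libraries held 11032732 to 18588623 expected counts, and the 35 genes took 0.257% to 0.323% of them. Values below are counts per 1000000 (CPM) scaled by the trimmed mean of M-values (TMM), unless TPM are named, which are relative to transcript length and to all transcripts of a library. A count of 3 corresponds to 0.157 to 0.27 CPM on this scale, depending on the library. Replicates correlated at r = 0.966 for B2 and r = 0.836 for B1a cells (Pearson, across genes on log2 CPM, genes not being independent), against 0.788 to 0.858 between the cell types. The B cell markers Ms4a1, Cd79a, Cd79b and Pax5 were high in all libraries, with sums from 3214 to 4415 CPM. Ms4a1 and Cd79a were higher in B1a cells (1.66- and 1.45-fold, edgeR adjusted p = 0.0299 and 0.0349). Pax5 was 1.86-fold higher in B2 cells (edgeR adjusted p = 0.01), and Cd79b differed less (edgeR adjusted p = 0.125). The sorting markers went with the labels: Cd5, Spn and Itgam summed to 298 to 441 CPM in B1a cells and 46.9 to 48.8 CPM in B2 cells, while Fcer2a and Cr2, which encode CD23 and CD21, summed to 153 to 162 and 1902 to 1942 CPM. Of 11 macrophage markers, 6 were higher in both B1a libraries, and the list summed to 229 to 254 CPM in B1a and 65.1 to 74.7 CPM in B2 cells. Lyz2, the lysozyme gene, was the 1 of 9 tested macrophage markers that passed the test, at 127 and 136 CPM in B1a and 16.8 and 27.2 CPM in B2 cells (5.95-fold, edgeR adjusted p = 0.00765). Adgre1, Cd14, C1qa, C1qb and C1qc were also higher in both B1a libraries, without passing. Csf1r, Mertk and Marco overlapped, Csf1r at 16.85 and 21.85 CPM in B1a and 21.17 and 18.36 CPM in B2 cells. Fcgr1 was at 0 in both B1a libraries and the second B2 library, and Timd4 at 0 in 1 library of each cell type. Red blood cell genes summed to 78.8 and 504 CPM in the B1a libraries and 36.8 and 83.5 CPM in the B2 libraries. Mast cell genes summed to 8.72 to 19.2 CPM in B1a and 0.941 to 1.48 CPM in B2 cells. T cell genes gave 68.8 to 108 CPM in all 4 libraries, and mesothelial genes at most 0.0867 CPM. The part of these cells in the results on glucose genes was not tested, and in sorted bulk samples fewer cells of a type and less RNA per cell cannot be told apart.

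Of the 35 genes, 34 passed the filter on low counts and entered the test. The triosephosphate isomerase, Gapdh and enolase genes Tpi1, Gapdh and Eno1 were higher in B1a cells, with an adjusted p below 0.05 by the two-sided quasi-likelihood test of edgeR over 12078 genes, and 0 of the 34 were higher in B2 cells at that threshold, which DESeq2 and limma-voom also left at 0. The background was 512 genes higher in B1a cells, 4.24% of those tested, and 181 genes higher in B2 cells, 1.5%. DESeq2 and limma-voom called 4.52% and 2.99% of all tested genes higher in B2 cells. On log2(TPM + 1) with limma, 266 genes were higher in B1a and 233 in B2 cells, and the median log2 fold change of all genes moved by -0.28, or by -0.31 with a pseudocount of 0.1. At an unadjusted p under 0.05, 13 of the 34 were higher in B1a cells and 2, Pgd and Rpia, were lower, against 11.7% and 9.22% of all tested genes. Both B1a libraries lay above both B2 libraries for 14 of the 34 genes and below them for 9, against 25.3% and 29.1% of all tested genes, while 11 overlapped. Over the 34 genes the median log2 fold change, as B1a over B2, was 0.19, beside -0.03 over all tested genes. No gene of the list with at least 100 counts in a cell type differed by 4 times or more between its replicates, whereas 7.65% of all genes at that depth did so in B1a and 0.174% in B2 cells.

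**Figure D1:**
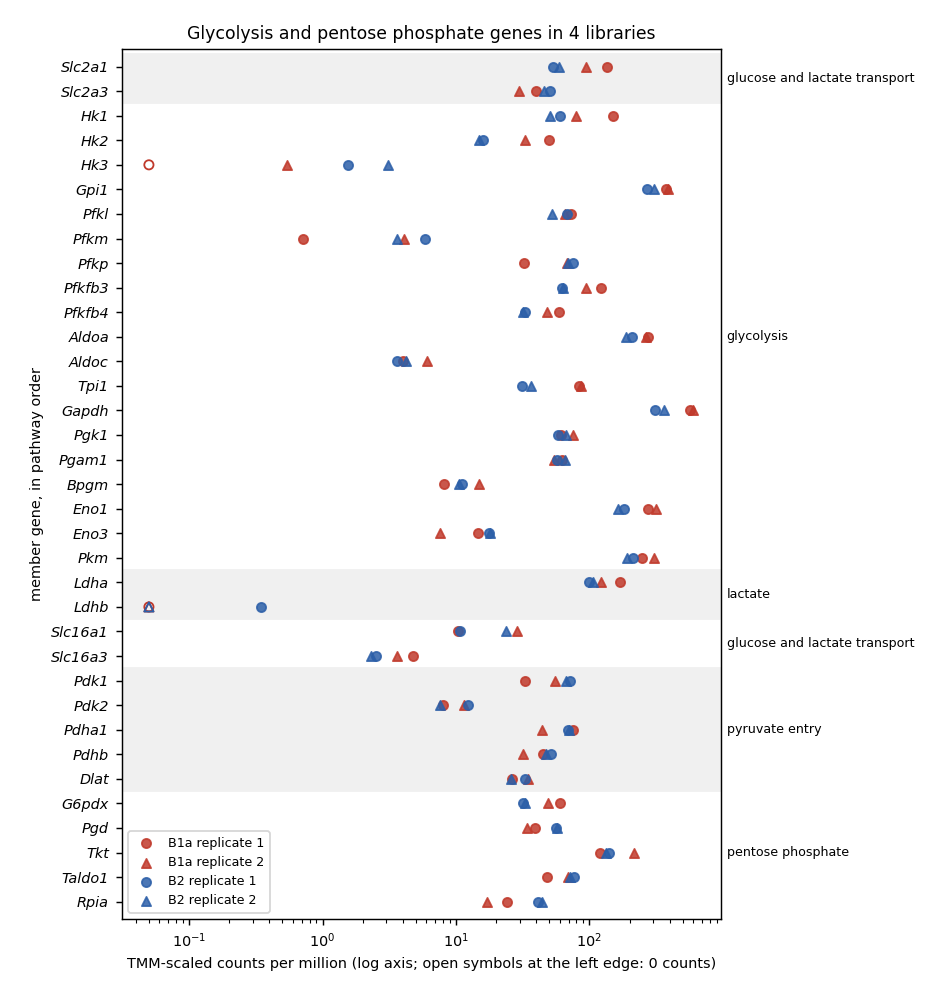
TMM-scaled CPM (log axis) of the 35 genes in the 2 B1a (red) and 2 B2 (blue) libraries, in pathway order, with open symbols at the left edge for 0 counts. Gapdh was the most abundant gene in every library, at 568 and 602 CPM in B1a and 312 and 364 CPM in B2 cells.

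Tpi1, which interconverts the products of aldolase, showed the largest fold change among the genes past the threshold. The gene lies on chromosome 6 from 124810586 to 124814158 (GRCm38). Tpi1 stood at 83.4 and 86.1 CPM in the B1a libraries and at 31.3 and 36.2 CPM in the B2 libraries. The groups did not overlap, and each pair of replicates lay within 5 CPM. Tpi1 was 2.51-fold higher in B1a cells, a log2 fold change of 1.33 ± 0.22 (SE, n = 2 per group, edgeR adjusted p = 0.0281). By TPM it ranked 7 and 9 among the 35 genes in B1a and 16 and 15 in B2 cells.

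Gapdh, the dehydrogenase of the NADH-yielding step, lies on chromosome 6 from 125161852 to 125166467. It stood at 568 and 602 CPM in B1a cells and at 312 and 364 CPM in B2 cells, so that the lowest B1a library lay well above the highest B2 library. Gapdh was 1.73-fold higher in B1a cells, a log2 fold change of 0.79 ± 0.13 (SE, n = 2 per group, edgeR adjusted p = 0.0247). Gapdh ranked first by TPM in all 4 libraries, with 1067 and 1120 TPM in B1a and 698 and 786 TPM in B2 cells. Gapdh has processed copies elsewhere in the genome, and the posterior standard deviation of its count from the read assignment was at most 1.72 counts. That spread covers assignment among annotated entries only, so reads from a copy without an entry would not show in it.

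Eno1, the common enolase, lies on chromosome 4 from 150236708 to 150248879. It stood at 273 and 314 CPM in B1a cells and at 183 and 163 CPM in B2 cells, again without overlap. Eno1 was 1.7-fold higher in B1a cells, with a log2 fold change of 0.76 ± 0.14 (SE, n = 2 per group, edgeR adjusted p = 0.0397). Eno1b, a near-identical copy counted under its own symbol, had 0 counts in both B1a libraries and 35 and 144 counts in the B2 libraries, or 1.64% and 4.42% of both genes together. Summing both, an alternative chosen after seeing the data, left the same 3 genes past the threshold. The entries summed as Eno1 had posterior standard deviations from the read assignment of 11.04 to 53.95 counts. The Eno1b counts come from the same assignment, so that 0 counts are an estimate and not a measured absence.

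The calls for Tpi1 and Eno1 were lost when either B2 library was left out, and that for Gapdh when B2 replicate 1 was left out. Without B2 replicate 1 none of them passed (edgeR adjusted p = 0.25 for Tpi1, 0.12 for Gapdh and 0.0907 for Eno1, B2 then being assumed to vary like B1a), with log2 fold changes of 1.22, 0.68 and 0.84. Without B2 replicate 2 Gapdh alone passed, and Tpi1 and Eno1 had adjusted p = 0.127 and 0.31 by edgeR. On the log2(TPM + 1) scale Tpi1 alone passed with limma, and Gapdh and Eno1 had log2 fold changes of 0.56 and 0.52 (limma adjusted p = 0.0671 and 0.102). With upper quartile scaling Eno1 missed the threshold, at an edgeR adjusted p of 0.0578. In the other direction, DESeq2 called 8 genes of the list higher in B1a cells, against 8.31% of all tested genes. These were Tpi1, Gapdh, Eno1, Gpi1, Hk1, Hk2, Pfkfb3 and Slc2a1. With limma-voom and a weight for each cell type 7 were called, against 8.73% of all tested genes, Gpi1 being the gene not shared with DESeq2. Without B1a replicate 1, when the remaining B1a library is assumed to vary like B2, edgeR called 11 genes of the list higher and 6 lower in B1a cells, beside 16.1% and 14.9% of the genes then tested. Without B1a replicate 2 these were 12 and 7 genes, beside 22.2% and 26.7%. In each of the alternatives run, the log2 fold changes of Tpi1, Gapdh and Eno1 stayed above 0.

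The bases upstream of the RefSeq start (GRCm38.p6) of these 3 genes are shown because they are the genes that passed the test. Capitals mark matches, on either strand, to CACGTG (the E-box bound by MYC and related factors), ACGTG and GCGTG (cores of the hypoxia response element) and GGGCGG (the GC box bound by SP factors).
Tpi1, chr6:124814159-124814408, minus strand: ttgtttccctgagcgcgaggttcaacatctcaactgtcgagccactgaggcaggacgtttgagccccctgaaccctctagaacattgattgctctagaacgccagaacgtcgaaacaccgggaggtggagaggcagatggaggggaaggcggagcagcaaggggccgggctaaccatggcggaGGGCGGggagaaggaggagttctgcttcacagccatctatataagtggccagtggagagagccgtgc
Gapdh, chr6:125165774-125166023, minus strand: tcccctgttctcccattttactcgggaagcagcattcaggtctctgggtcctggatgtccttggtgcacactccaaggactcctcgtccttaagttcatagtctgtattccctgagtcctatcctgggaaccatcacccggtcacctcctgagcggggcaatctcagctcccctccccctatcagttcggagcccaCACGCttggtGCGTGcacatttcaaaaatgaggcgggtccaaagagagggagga
Eno1, chr4:150236458-150236707, plus strand: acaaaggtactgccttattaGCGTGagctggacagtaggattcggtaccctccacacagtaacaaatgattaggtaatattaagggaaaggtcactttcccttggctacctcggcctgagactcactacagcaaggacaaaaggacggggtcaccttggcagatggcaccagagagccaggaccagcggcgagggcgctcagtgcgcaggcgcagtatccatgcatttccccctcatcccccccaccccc
Each sequence reads 5′ to 3′ along the gene and ends at the base before the start. RefSeq gives 3 starts for Eno1, of which the most upstream is shown. The table of starts holds a single start for Gapdh, which lies inside the gene interval given above, so the stretch shown is upstream of that start but within the annotated gene.

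The Tpi1 stretch held 1 match, a GC box, the Gapdh stretch 2 matches, both GCGTG or its complement, and the Eno1 stretch 1 match to GCGTG. Over the list, 34 of the 35 genes had a RefSeq start in the table used, with 49 starts in all. CACGTG was found before 5 of these starts (10.2%), beside 6.02% of all 32851 starts and 8.09% of the 11692 starts of tested genes. ACGTG, which CACGTG contains, was found before 17 (34.7%), beside 16.6% and 21.3%. GCGTG was found before 27 (55.1%), beside 28.2% and 44%, and GGGCGG also before 27, beside 32.7% and 55.8%. A match describes letters in this window and not the binding of a factor.

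Glucose uptake genes differed in direction, although neither passed the threshold. Slc2a1, which encodes the broadly expressed transporter GLUT1 (chromosome 4, 119108745 to 119137330), stood at 136 and 94.5 CPM in B1a and 53.6 and 58.9 CPM in B2 cells. The groups did not overlap, at a log2 fold change of 1.03 ± 0.24 (SE, edgeR adjusted p = 0.0712). Slc2a3, which encodes the high-affinity transporter GLUT3, stood at 39.8 and 29.6 CPM in B1a and 50.8 and 45.7 CPM in B2 cells (log2 fold change -0.47 ± 0.28, edgeR adjusted p = 0.421). As a share of the TPM of both genes, which does not depend on the scaling between libraries, Slc2a1 made up 84.2% and 83.2% in B1a and 62.1% and 66.7% in B2 cells. In 5 of 9 alternatives that kept all 4 libraries, Slc2a1 passed the threshold, higher in B1a cells.

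Of the hexokinase genes, Hk1 (chromosome 10, 62268855 to 62379920) had the highest TPM. It stood at 150 and 79.8 CPM in B1a and 60.0 and 51.0 CPM in B2 cells. The B1a replicates differed by 1.88 times, and the log2 fold change was 1.05 ± 0.33 (SE, edgeR adjusted p = 0.149). Hk2, the inducible isozyme, stood at 49.6 and 32.9 CPM in B1a and 16.1 and 14.9 CPM in B2 cells. This gave a log2 fold change of 1.41 ± 0.36 (SE, edgeR adjusted p = 0.0948), larger than that of Tpi1 but with a wider error. Hk3, an isozyme of myeloid cells, had 0 and 6 counts in B1a and 18 and 59 counts in B2 cells. The neutrophil genes S100a8 and S100a9 were likewise at 0 counts in both B1a libraries, with 5 and 37 and with 7 and 90 counts in the B2 libraries. The 3 neutrophil genes in the files summed to at most 6.64 CPM, and their part in the Hk3 counts was not tested. Hk1 made up 71.4% to 78.0% of hexokinase TPM in B1a and 71.4% to 80.7% in B2 cells, so that these shares overlapped.

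At the next steps, Gpi1, the glucose-6-phosphate isomerase gene, stood at 373 and 390 CPM in B1a and 269 and 304 CPM in B2 cells (log2 fold change 0.42 ± 0.13, edgeR adjusted p = 0.14). Pfkl, with the highest mean TPM of the phosphofructokinase genes over the 4 libraries (chromosome 10, 77986947 to 78009807), stood at 72.3 and 66.1 CPM in B1a and 67.4 and 52.8 CPM in B2 cells, and the groups overlapped (log2 fold change 0.20 ± 0.23, edgeR adjusted p = 0.704). Phosphofructokinase is the main control point of glycolysis. Pfkp, its platelet-type isozyme, stood at 32.5 and 68.1 CPM in B1a and 75.7 and 68.8 CPM in B2 cells, the second B1a library lying next to the B2 libraries (log2 fold change -0.52 ± 0.37, edgeR adjusted p = 0.512). The Pfkl share of phosphofructokinase TPM was 70.1% and 49.3% in B1a and 46.5% and 43.6% in B2 cells. The Pfkp share was 29.03% and 46.7% in B1a and 48.1% and 52.4% in B2 cells, so that Pfkl was the more abundant of the pair in both B1a libraries and Pfkp in both B2 libraries, by a small margin in all but the first B1a library. Pfkm, the muscle isozyme, had 8 to 69 counts and made up at most 5.34%.

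Pfkfb3 and Pfkfb4 encode enzymes that make and remove fructose-2,6-bisphosphate, the activator of phosphofructokinase. Pfkfb3 stood at 122 and 94.9 CPM in B1a and 61.9 and 63.8 CPM in B2 cells (log2 fold change 0.78 ± 0.21, edgeR adjusted p = 0.102). Pfkfb4 stood at 59.0 and 48.5 CPM in B1a and 33.0 and 31.9 CPM in B2 cells (log2 fold change 0.73 ± 0.26, edgeR adjusted p = 0.189). Neither gene overlapped between the cell types, and Pfkfb3 made up 56.1% to 58.2% of the TPM of both in all 4 libraries. Outside the list, Pfkfb2 was lower in both B1a libraries, at 44.2 and 64.7 CPM against 85.15 and 69.4 CPM (log2 fold change -0.51 ± 0.27, edgeR adjusted p = 0.372). By TPM Pfkfb2 lay above Pfkfb3 in both B2 libraries, at 65.0 and 50.2 against 34.8 and 36.1, and below it in both B1a libraries. Pfkfb1, with 35 to 141 counts, overlapped.

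**Figure D2:**
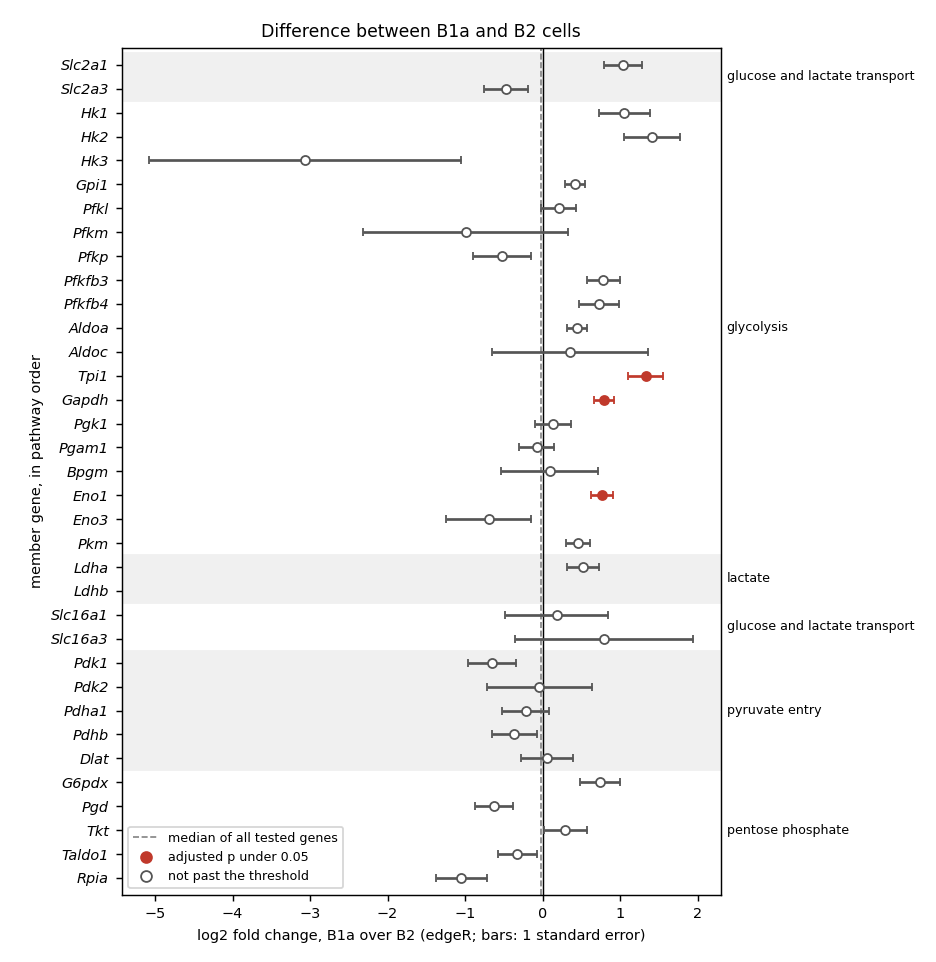
Log2 fold change (B1a over B2, edgeR) of the 34 tested genes in pathway order, with bars of 1 standard error and red points for an adjusted p under 0.05; the dashed line is the median of all tested genes. Tpi1, Gapdh and Eno1 lay at 1.33, 0.79 and 0.76, and Ldhb has no point because it was not tested.

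Aldoa, the main aldolase gene (chromosome 7, 126795234 to 126800994), stood at 276 and 267 CPM in B1a and 209 and 189 CPM in B2 cells, without overlap (log2 fold change 0.44 ± 0.13, edgeR adjusted p = 0.129). It made up at least 98.8% of aldolase TPM, the brain isozyme gene Aldoc having 42 to 81 counts. Pgk1, the phosphoglycerate kinase gene, stood at 61.6 and 75.6 CPM in B1a and 58.6 and 66.6 CPM in B2 cells (log2 fold change 0.13 ± 0.23, edgeR adjusted p = 0.821). Pgam1, the phosphoglycerate mutase gene, stood at 61.9 and 54.1 CPM in B1a and 57.2 and 65.3 CPM in B2 cells (log2 fold change -0.08 ± 0.23, edgeR adjusted p = 0.898). Both genes overlapped between the cell types although they act between Gapdh and Eno1, which did not. Bpgm, which makes 2,3-bisphosphoglycerate and is abundant in red blood cells, stood at 8.16 and 14.9 CPM in B1a and 11.2 and 10.5 CPM in B2 cells. The second B1a library was highest for Bpgm and for the globin genes Hba-a1, Hba-a2, Hbb-bs and Hbb-bt, though lowest for Alas2. Slc4a1, also a red blood cell gene, had 0 counts in both B1a libraries and 8 and 52 counts in the B2 libraries. The part of red blood cells in the Bpgm value was not tested.

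Eno3, the muscle enolase gene, stood at 14.6 and 7.55 CPM in B1a and 17.8 and 18.1 CPM in B2 cells (log2 fold change -0.70 ± 0.55, edgeR adjusted p = 0.559). Eno1 accordingly made up 94.3% and 97.2% of the TPM of both in B1a and 89.9% and 88.9% in B2 cells. Pkm, the pyruvate kinase gene of most tissues, stood at 249 and 304 CPM in B1a and 211 and 193 CPM in B2 cells. Its groups did not overlap, at a log2 fold change of 0.45 ± 0.15 (SE, edgeR adjusted p = 0.169). The Pkm counts are summed over transcripts and do not separate its splice forms.

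**Figure D3:**
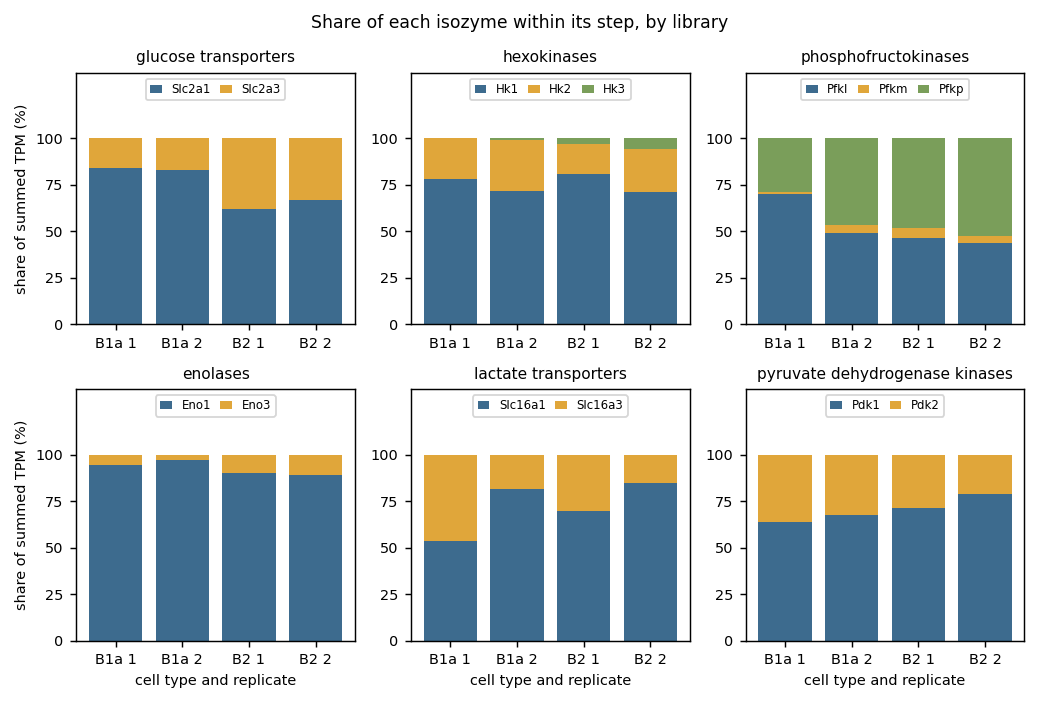
Share (%) of each isozyme gene in the summed TPM of its step, for the 2 B1a and 2 B2 libraries. The Slc2a1 share was 83.2% to 84.2% in B1a and 62.1% to 66.7% in B2 cells, while the Pfkl share of the first B1a library, 70.1%, stood apart from 43.6% to 49.3% in the others.

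Lactate dehydrogenase RNA was almost wholly Ldha (chromosome 7, 46842274 to 46855627), which encodes the subunit typical of muscle. Ldha stood at 171 and 123 CPM in B1a and 98.9 and 107 CPM in B2 cells, and the second B1a library lay close to the B2 libraries (log2 fold change 0.51 ± 0.21, SE, edgeR adjusted p = 0.235). Ldhb, which encodes the heart-type subunit, had 0 counts in 3 libraries and 4 counts in the first B2 library, which was too few to test. Each count of 0 allows up to 0.269 and 0.27 CPM in the B1a libraries and 0.157 CPM in the second B2 library, for counting error only. Of the lactate transporters, Slc16a1 (chromosome 3, 104638664 to 104658462), which encodes MCT1, stood at 10.4 and 28.6 CPM in B1a and 10.8 and 23.6 CPM in B2 cells. Its replicates differed by 2.75 and 2.19 times, the widest of any gene in the list with at least 100 counts in that cell type, and its fold change had no stable direction (log2 0.18 ± 0.66, edgeR adjusted p = 0.923). Slc16a3, which encodes MCT4, had 29 to 53 counts, with 4.75 and 3.60 CPM in B1a and 2.52 and 2.30 CPM in B2 cells.

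Of the 5 genes of pyruvate entry into the mitochondrion, 0 passed the threshold by edgeR, DESeq2 or limma-voom, and 0 had an unadjusted p under 0.05 by edgeR. Pdk1, the kinase gene of the list with the higher TPM (chromosome 2, 71873215 to 71903858), stood at 32.7 and 55.7 CPM in B1a and 71.4 and 67.2 CPM in B2 cells. Both B1a libraries were lower, at a log2 fold change of -0.65 ± 0.31 (SE, edgeR adjusted p = 0.316), and the B1a replicates lay farther apart than the B2 replicates. Pdk2 overlapped, with 7.98 and 11.4 CPM in B1a and 12.4 and 7.63 CPM in B2 cells. Outside the list, Pdk3 was higher in both B1a libraries, at 34.9 and 32.8 CPM against 14.05 and 19.9 CPM (log2 fold change 0.99 ± 0.37, edgeR adjusted p = 0.2). By TPM Pdk3 lay above Pdk1 in both B1a libraries, at 41.8 and 38.4 against 14.75 and 24.5, and below it in both B2 libraries. Pdk4, with at most 32.3 counts, was lower in both B1a libraries. The complex genes Pdha1, Pdhb and Dlat, for the E1 alpha, E1 beta and E2 subunits, had log2 fold changes of -0.22, -0.36 and 0.05, with adjusted p from 0.556 to 0.954 by edgeR. Of these only Pdhb did not overlap, at 44.9 and 31.9 CPM in B1a and 51.7 and 47.2 CPM in B2 cells.

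In the pentose phosphate pathway the 2 genes of the list from the oxidative branch pointed in opposite directions. G6pdx, which encodes the enzyme that commits glucose-6-phosphate to the pathway, stood at 60.1 and 48.6 CPM in B1a and 31.9 and 33.0 CPM in B2 cells (log2 fold change 0.74 ± 0.26, edgeR adjusted p = 0.186). Pgd, for the later NADPH-producing step, stood at 39.3 and 34.1 CPM in B1a and 56.3 and 57.0 CPM in B2 cells (log2 fold change -0.63 ± 0.24, edgeR adjusted p = 0.221). Neither passed the threshold, and neither overlapped between the groups. The ratio of G6pdx to Pgd by TPM, taken within a library, was 1.29 and 1.21 in B1a and 0.48 and 0.49 in B2 cells.

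In the non-oxidative branch Taldo1, the transaldolase gene (chromosome 7, 141392160 to 141402976), had the highest mean TPM over the 4 libraries, through the B2 libraries. Its mean was 166 TPM in B2 cells beside 117 for Tkt, whereas in B1a cells it was 112 beside 120 for Tkt. Taldo1 stood at 48.5 and 69.4 CPM in B1a and 76.3 and 72.0 CPM in B2 cells (log2 fold change -0.33 ± 0.25, SE, edgeR adjusted p = 0.543). Both B1a libraries lay lower, the second by a small margin. Rpia, which makes ribose-5-phosphate, stood at 24.0 and 17.0 CPM in B1a and 41.1 and 43.8 CPM in B2 cells. It had the lowest unadjusted p of the genes lower in B1a cells, 0.0198, with a log2 fold change of -1.05 ± 0.33 (SE, edgeR adjusted p = 0.151). Tkt, the transketolase gene, stood at 120 and 214 CPM in B1a and 140 and 133 CPM in B2 cells and overlapped (log2 fold change 0.29 ± 0.28, edgeR adjusted p = 0.642).

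Per length, the summed TPM of the 35 genes was 3935 and 3922 in B1a and 3374 and 3359 in B2 cells, a ratio of 1.17. Without the 6 genes Gapdh, Aldoa, Pgk1, Pkm, Eno1 and Ldha the sums were 1469 and 1413 against 1488 and 1479, a ratio of 0.971. These are not the 6 genes with the highest TPM: Pgk1 ranked 9 to 13, and Gpi1, ranked 3 or 4, was kept. They include Gapdh and Eno1, which passed the threshold as higher in B1a cells, so that leaving those out lowers the ratio by construction. Both ratios are on TPM without TMM scaling. On log2(TPM + 1) the median log2 fold change of all genes moved by -0.28 from the TMM scale. A ratio near 1 here is therefore not a ratio near 1 in TMM-scaled CPM. Within the summed TPM of a library, the 19 glycolysis genes made up 77.1% and 79.0% in B1a and 70.9% and 71.8% in B2 cells. The 5 pentose phosphate genes made up 7.88% and 9.79% in B1a and 13.7% and 13.3% in B2 cells, and the 5 genes of pyruvate entry 4.50% and 3.67% against 7.28% and 6.59%. These 3 shares did not overlap between the cell types, while those of transport and of lactate dehydrogenase did. They are descriptions with no test, and a larger share of glycolysis RNA lowers the other shares by construction. The shares also depend on which genes are listed. Of 6 tested pentose phosphate genes outside the list, 5 had a log2 fold change above 0 and 1 below. Pgls had a mean of 230 TPM in B1a and 155 TPM in B2 cells, H6pd 60.1 and 16.5 TPM, and Rpe 33.4 and 55.4 TPM.

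**Figure D4:**
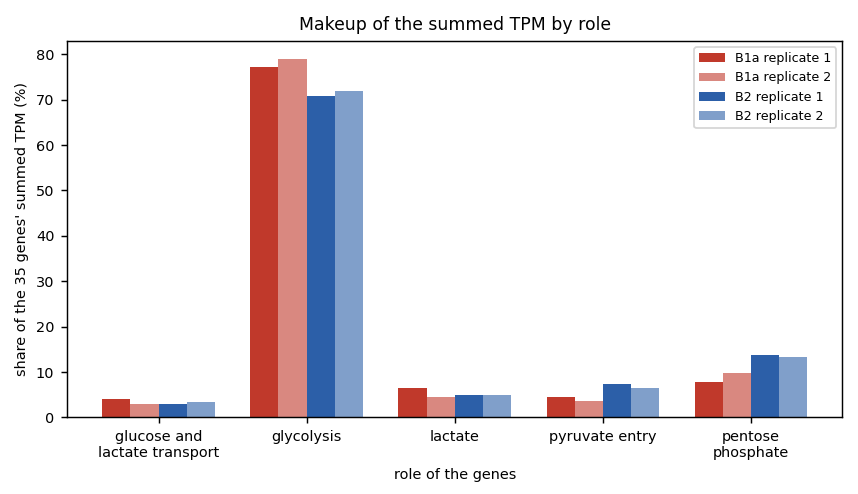
Share (%) of the summed TPM of the 35 genes taken by each role, with bars from 0 for each of the 4 libraries. Glycolysis genes of the list made up 77.1% and 79.0% in B1a and 70.9% and 71.8% in B2 cells. Pentose phosphate genes of the list made up 7.88% and 9.79% against 13.7% and 13.3%, with genes outside the list, such as Pgls and H6pd, not counted.

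The rest of the pathway was read from 77 further genes in 7 lists, of which 65 were tested. By edgeR 4 were higher in B1a cells at the threshold and 0 were higher in B2 cells, beside 4.24% and 1.5% of all tested genes. At an unadjusted p under 0.05 these counts were 12 and 2, beside 11.7% and 9.22%. DESeq2 called 6 and 1, beside 8.31% and 4.52%, and limma-voom also 6 and 1, beside 8.73% and 2.99%, the gene higher in B2 cells being the monocarboxylate transporter gene Slc16a6. The other pentose phosphate genes gave 2 of 6 tested. H6pd, the G6pdx-like enzyme of the endoplasmic reticulum, stood at 138 and 107 CPM in B1a and 35.1 and 22.0 CPM in B2 cells (log2 fold change 2.10 ± 0.31, edgeR adjusted p = 0.017). Prps2, which turns ribose-5-phosphate into the precursor of nucleotides, stood at 193 and 203 CPM in B1a and 61.3 and 64.3 CPM in B2 cells (log2 fold change 1.65 ± 0.15, edgeR adjusted p = 0.0044). With either B2 library left out both genes stayed past the threshold, and on log2(TPM + 1) H6pd was at an adjusted p of 0.0624 by limma.

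In the tricarboxylic acid cycle list 1 of 15 tested genes passed, Mdh1, the cytosolic malate dehydrogenase that moves reducing power across the mitochondrial membrane. It stood at 130 and 150 CPM in B1a and 68.8 and 62.0 CPM in B2 cells (log2 fold change 1.10 ± 0.18, edgeR adjusted p = 0.0266), and missed the threshold without B2 replicate 1 or 2 (edgeR adjusted p = 0.0775 and 0.184). The median log2 fold change of that list was -0.07. Mdh2, its mitochondrial malate dehydrogenase gene, overlapped between the cell types (log2 fold change -0.25 ± 0.26, edgeR adjusted p = 0.6655). Among 16 tested regulators of glucose use 1 passed, Txnip, an inhibitor of glucose uptake whose transcription rises with glucose. Txnip stood at 825 and 1002 CPM in B1a and 549 and 538 CPM in B2 cells (log2 fold change 0.75 ± 0.13, edgeR adjusted p = 0.0301), and missed the threshold on log2(TPM + 1) (limma adjusted p = 0.0985). The median of that list was 0.07. Of the 9 tested genes of other transport and its partners, 10 of other glycolysis isozymes, 2 phosphatases and 7 other pyruvate dehydrogenase genes, 0 passed in either direction by edgeR, with 2, 1, 1 and 1 at an unadjusted p under 0.05.

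**Figure D5:**
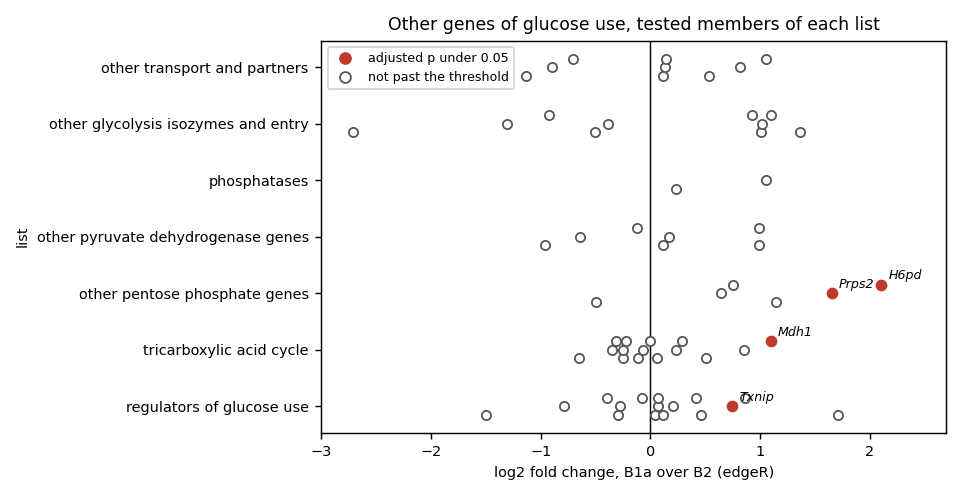
Log2 fold change (B1a over B2, edgeR) of the 65 tested genes in 7 further lists of glucose use, with red points for an adjusted p under 0.05. H6pd, Prps2, Mdh1 and Txnip lay at 2.10, 1.65, 1.10 and 0.75, and no gene lay past the threshold on the B2 side.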

How the data were processed

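RNA was isolated from sorted cells with an RNeasy Plus Micro kit and made into libraries with a Kapa kit. The authors assigned reads to genes with RSEM, given as version 1.2.29 in the submitters' processing notes together with the build mm10, and deposited an expected count and TPM for 21970 entries per library. Entries were summed by gene symbol (20599 symbols, 4 genes of the list having 2 entries each), rounded to whole numbers, filtered with filterByExpr and scaled by TMM. B1a cells (2 libraries) were compared with B2 cells (2 libraries) by edgeR 4.0.16 (glmQLFit and glmQLFTest, R 4.3.3) with no covariate, at a Benjamini-Hochberg adjusted p under 0.05 over 12078 genes and no minimum fold. Standard errors come from the log2 fold change and its F statistic. Alternatives used DESeq2 1.42.0, limma 3.58.1, upper quartile factors, other filters, a pseudocount of 1 or 0.1 on deposited TPM (mean TPM of at least 1), a replicate block, and each library left out. The study's own test, EBSeq, was not run here. The scripts were tested on simulated data.

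The genes and lists were chosen with earlier results of these data known. Given in full were genes past the threshold, the gene with the highest mean TPM of each step, and any gene whose replicates differed by at least 4 times with at least 100 counts. Of the further lists, genes past the threshold were named, at most 3 per list. Values of the other genes are given to account for the list and were seen before they were described. Coordinates and upstream sequences come from RefSeq, GRCm38.p6. Intervals from 3 counts cover counting error only. Some marker genes and sorting markers are not reported here, and the sums of marker lists leave them out.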

Additional observations from a re-analysis of the deposited data

How the results depend on the processing

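Of 34 tested genes, 25 kept the sign of their fold change in each of the alternatives run, Tpi1, Gapdh and Eno1 among them. The count of genes of the list higher in B1a cells was 3 in the main analysis, 8 with DESeq2 and 7 with limma-voom weights. Beside these, 512, 1004 and 1054 of all 12078 tested genes were higher in B1a cells. With no filter beyond 1 count it was 5, beside 779 of 14730. On log2(TPM + 1) and log2(TPM + 0.1) it was 1 each, beside 266 and 196 of 12027. Of the further pathway genes 4 were called, 7 with DESeq2, 7 with limma-voom, 1 on each TPM scale, 8 with the replicate block and 3 to 33 with 1 library left out. Over all tested genes, again in both directions, 693 calls of 12078 became 1550 with DESeq2, 1415 with limma-voom and 1481 with the replicate block. With no filter they were 1141 of 14730. On log2(TPM + 1) and log2(TPM + 0.1) they were 499 and 359 of 12027. Leaving out 1 library gave 0 to 12 genes of the list higher in B1a, 0 to 7 higher in B2, and 539 to 6143 calls in all. The high ends came without a B1a library, when only B2 cells, with r = 0.966 between replicates, measured the spread. With the replicate block 7 genes of the list were higher in B1a cells, beside 889 of all 12078 tested genes. Replicate differences correlated at -0.0347 between the cell types, so the replicate numbers give no pairing. The summed TPM ratio of 1.17 became 0.971 without Gapdh, Aldoa, Pgk1, Pkm, Eno1 and Ldha, both on TPM without TMM scaling.

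Fold changes near 0 reversed, and the cause was not tested. On log2(TPM + 1) and log2(TPM + 0.1) these were Pfkl (-0.028 and -0.0284), Pgk1 (-0.11 in both), Bpgm (-0.20 and -0.21), Slc16a1 (-0.11 and -0.12), Dlat (-0.18 and -0.19) and Tkt (-0.0073 and -0.0077), all less negative than the shift of the median gene. With limma-voom Slc16a1 was at -0.0323 and Pdk2 at 0.072, and with upper quartile factors Dlat was at -0.0157. With 1 library left out, the log2 fold change ranged from -0.0258 to 0.27 for Pgk1, -0.18 to 0.0134 for Pgam1, -0.41 to 0.46 for Bpgm, -0.73 to 0.85 for Slc16a1, -0.36 to 0.34 for Pdk2, -0.67 to 0.12 for Pdha1, -0.16 to 0.24 for Dlat and -0.19 to 0.65 for Tkt. Each reversed value missed the threshold. Depth limits Hk3, Pfkm, Aldoc, Slc16a3 and Ldhb, with at most 81 counts in any library.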
